A study of Mus musculus with 20 samples.

Results

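The 10 genes described here encode the electrolyte and water transporters of colonocytes, the absorptive cells of the colon. They are Slc26a3, Slc26a2, Slc9a3, Aqp8, Scnn1a, Scnn1b, Scnn1g, Slc5a8, Slc12a2 and Cftr, out of 32991 genes with a value in the deposited files. The genes were chosen by name for their role, with earlier results of these data known. RNA was measured in colon tissue of 20 male C57BL/6 mice, with 5 mice in each of the groups labelled Control, PZH, Model and Model + PZH and 1 library per mouse. Mice of the Model and Model + PZH groups were a model of colitis-associated colorectal cancer (CAC). They had received a single injection of 12.5 mg/kg of the carcinogen azoxymethane (AOM), then 4 cycles of 2% dextran sodium sulfate (DSS), which injures the colon lining, in the drinking water for 5 days each. Mice of the PZH and Model + PZH groups were gavaged with 250 mg/kg/d of PZH (Pien Tze Huang), a formula of traditional Chinese medicine, for 91 days, while Control and Model mice were gavaged with double distilled water. A Model library holds RNA of all cells in a piece of colon, tumor or not, so fewer cells of a type and less RNA per cell cannot be told apart.

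Colonocytes at the surface of the colon take up sodium chloride through a sodium/proton exchanger and a chloride/bicarbonate exchanger that work side by side in the membrane facing the lumen, and through the epithelial sodium channel (ENaC) in the distal colon, and water follows. Bacterial short-chain fatty acids are taken up by the same cells. Secretion runs the other way: a cotransporter in the basal membrane loads the cell with chloride, which leaves into the lumen through the chloride channel CFTR, and loss of chloride absorption or excess secretion gives diarrhea.

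Compared to the Control group, 5 of the 10 transporter genes were significantly lower in the Model group, namely Slc26a3, Slc26a2, Aqp8, Scnn1a and Slc5a8, which all serve uptake or take part in anion exchange at the surface of the colon. Slc12a2, which loads chloride for secretion, was significantly higher, and so was the low Scnn1b, whose call did not hold in most other settings. Slc26a3 and Aqp8 fell most, by 2.39 ± 0.28 and 2.36 ± 0.43 (SE) on the log2 scale. Between the Model + PZH and Model groups no transporter gene passed the adjusted test. In 4 of the 5 Model + PZH mice Slc26a3 was above every Model mouse, and mouse 35 was within the Model range.

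The unit of all levels is FPKM, the fragments of a transcript scaled to its length and to the fragments of the library, summed over the annotated transcripts of a gene. It corrects for transcript length and library size alone, and results under another scaling of the libraries are given at the end. Differences were tested with limma on log2(FPKM + 1) with Benjamini-Hochberg adjustment over all genes tested in a comparison, and a gene was called at an adjusted P under 0.05. Values below are given in the order of mouse number, which is 17, 37, 41, 48 and 50 for the Control group, 8, 14, 27, 46 and 53 for the PZH group, 23, 30, 33, 44 and 52 for the Model group and 2, 13, 15, 35 and 36 for the Model + PZH group.

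The depth of the libraries, read from the step size of the values, lay between 0.909 and 1.151 of the median mouse, and its absolute size is uncertain. The labelled extraction text speaks of abdominal aorta, whereas the tissue is labelled colon. The 6 goblet cell genes (Muc2, Tff3, Fcgbp, Spdef, Zg16, Agr2), which mark the mucus cells of the gut lining, summed to between 2541 and 8556 FPKM over the 20 mice, against 24.8 to 65.5 FPKM for 6 genes of the vessel wall. Hoxd13, a gene of the hindgut, was at 2.14 FPKM or more in every mouse. Libraries of Control mice 17 and 50 stood apart from the other Control mice. Their 6 squamous epithelium genes (Krt5, Krt14, Krt13, Krt6a, Trp63, Dsg3), which mark the stratified lining of the anal canal, summed to 266 and 232 FPKM, against at most 1.65 FPKM in the other 3 Control mice. Mouse 35 of the Model + PZH group came next with 64.1 FPKM, and the 5 Model mice had 12.1 to 35.7 FPKM. The summed markers were therefore raised in every Model library and in 2 of the 5 Control libraries. In Model mice Krt14 was at 6.20 to 22.5 FPKM, Krt13 at 3.06 to 11.5 FPKM and Krt6a at 0.414 to 4.27 FPKM. The same genes reached 61.0, 126 and 40.9 FPKM in the highest Control mouse for each. Krt5 reached at most 0.525 FPKM and Trp63 0.033 FPKM in Model mice, against 33.9 and 2.00 FPKM in Control mouse 17.

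The promoters of Slc26a3 and Aqp8, are shown because their RNA fell most. The sequences are the 250 bases before the start of each gene in RefSeq (GRCm38.p6), at chr12:31437969-31438218 (plus strand) for Slc26a3 and chr7:123462044-123462293 (plus strand) for Aqp8, and capitals mark the matches found. The gene coordinates given below are from GENCODE and differ from RefSeq. By them, the Slc26a3 window lies inside the gene (31390871 to 31473917). The Aqp8 window and its match at the end run past the gene start at 123462291.
Slc26a3: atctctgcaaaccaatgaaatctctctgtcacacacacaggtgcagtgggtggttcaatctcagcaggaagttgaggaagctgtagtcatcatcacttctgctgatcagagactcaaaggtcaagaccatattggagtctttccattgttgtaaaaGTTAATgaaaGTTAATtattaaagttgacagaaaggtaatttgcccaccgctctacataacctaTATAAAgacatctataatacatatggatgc
Aqp8: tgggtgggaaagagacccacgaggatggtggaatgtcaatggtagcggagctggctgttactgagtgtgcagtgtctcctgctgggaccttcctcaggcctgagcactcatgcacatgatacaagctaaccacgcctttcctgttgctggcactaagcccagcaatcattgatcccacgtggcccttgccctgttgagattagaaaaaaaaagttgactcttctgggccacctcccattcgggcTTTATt
The motifs searched on both strands were chosen after these sequences were seen. They were TATAAA, the TATA box, held by 13% of 27025 RefSeq promoters of this length, TTTAT, a core of caudal homeobox sites, held by 38.1%, GTTAAT, a half-site of hepatocyte nuclear factor 1, held by 6.52%, and AGAACA, a half-site of steroid receptors, held by 16.2%. Slc26a3 held 1 TATA box and 2 GTTAAT matches, and its TTTAT match lay on the other strand inside the TATA box. Aqp8 held 1 TTTAT match at the end of the window and no other. Of the 7 members with a promoter in the table, Slc5a8 and Scnn1g also held 1 TTTAT match each, and Slc9a3, Scnn1b and Cftr held none of the 4 motifs. The promoter of Slc26a3 was 38.8% G and C and that of Aqp8 52.4%, against 76.4% for Cftr.

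**Figure D1:**
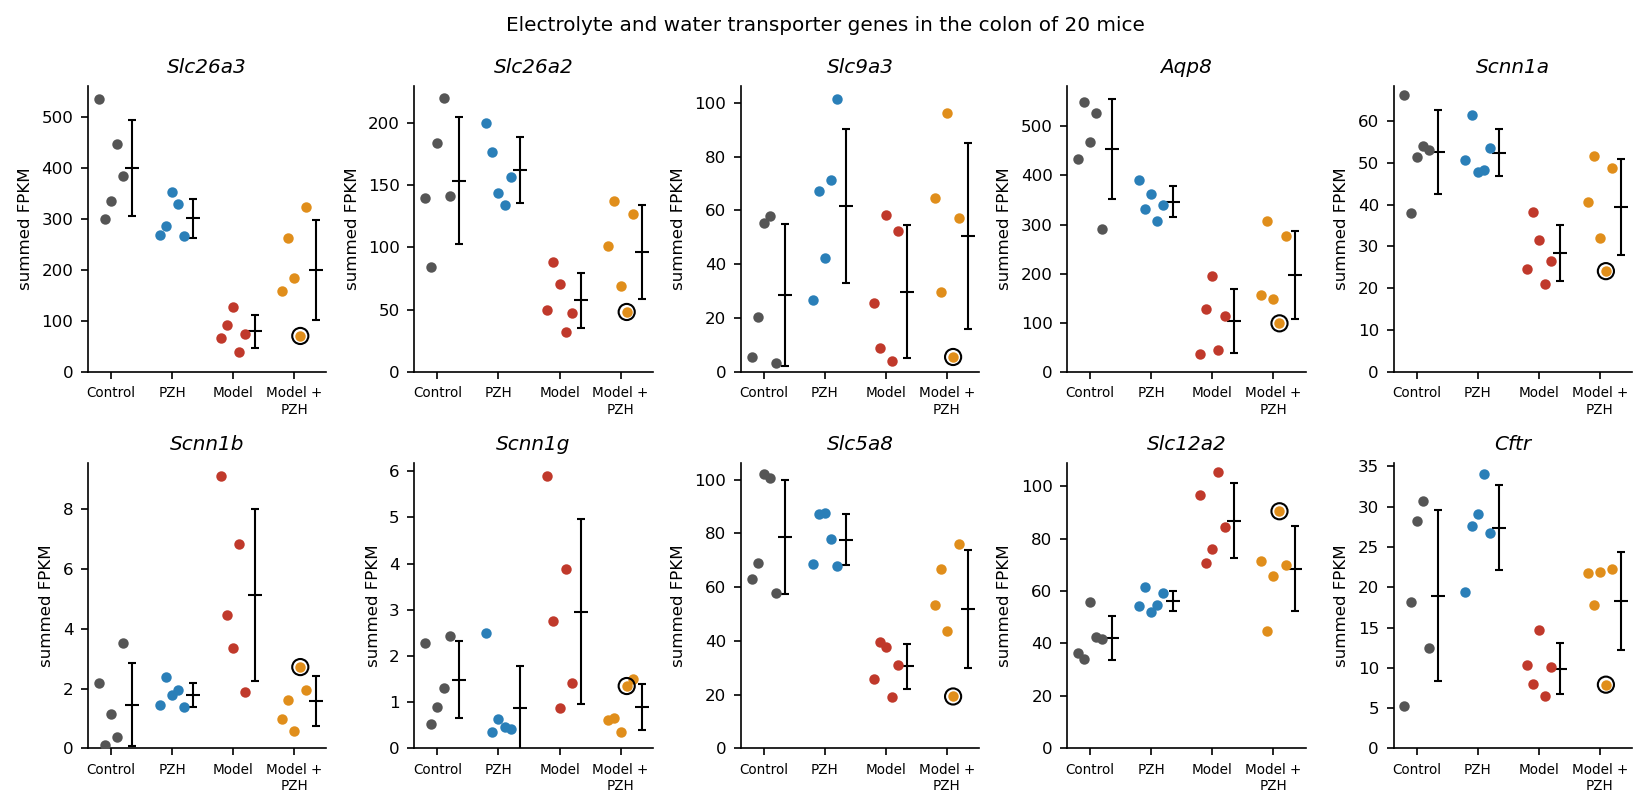
Summed FPKM of each transporter gene (vertical axes, from 0) in the 4 groups, with 1 point per mouse and the group mean ± SD beside the points (bars cut at 0). Slc26a3, Aqp8 and Slc5a8 of the 5 Model mice lie below every Control mouse and Slc12a2 above every Control mouse, and the ringed mouse 35 of the Model + PZH group lies within the Model range for these 4 genes.

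Slc26a3 (ENSMUSG00000001225, chromosome 12, 31390871 to 31473917, GRCm38) encodes the apical chloride/bicarbonate exchanger DRA, whose loss causes congenital chloride diarrhea. It was at 536, 299, 336, 446 and 384 FPKM in Control mice and at 269, 287, 353, 330.0 and 266 FPKM in PZH mice. In Model mice it was at 66.4, 91.8, 126, 38.4 and 74.9 FPKM, and in Model + PZH mice at 158, 262, 184, 70.3 and 323 FPKM. All 5 Model mice lay below the lowest Control mouse and below the lowest PZH mouse, and the Model + PZH mice spread from the Model range to above 1 Control mouse. The Model mean of 79.6 ± 32.5 FPKM (SD, n = 5) was 5.03-fold below the Control mean of 400.1 ± 93.7 FPKM, and the limma difference was -2.39 ± 0.28 (log2, SE; adjusted P = 0.000231). In that comparison 7.23% of 15812 genes were called lower and 16.4% higher, so that 23.6% were called in all, against 7 of the 10 transporter genes.

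Aqp8 (ENSMUSG00000030762, chromosome 7, 123462291 to 123468004) encodes a water channel of the colonocyte. Its level was 433, 550.4, 469, 527 and 290.4 FPKM in Control mice and 391.7, 332, 363, 307 and 340.3 FPKM in PZH mice. Among Model mice it was 36.9, 127, 195, 43.6 and 114 FPKM, and among Model + PZH mice 156, 306, 149, 98.7 and 276 FPKM. Here too the Model mice lay below every Control and every PZH mouse. The Model mean of 103 ± 65.5 FPKM was 4.39-fold below the Control mean of 454 ± 102 FPKM (log2 difference -2.36 ± 0.43, adjusted P = 0.00296). At the Control level Slc26a3 and Aqp8 were the most abundant of the 10 genes, and their Control ranges overlapped.

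Slc26a2 (ENSMUSG00000034320, chromosome 18, 61192919 to 61211612, minus strand) encodes a sulfate transporter of the same family as Slc26a3, which colonocytes also carry in the apical membrane. Control mice had 139, 84.0, 183, 220.1 and 141 FPKM and PZH mice 199.8, 177, 144, 134 and 156 FPKM. Model mice had 49.9, 88.0, 70.1, 31.9 and 47.2 FPKM, and Model + PZH mice 101, 137, 69.2, 48.1 and 127 FPKM. The Model and Control groups overlapped by 1 mouse each, Model mouse 30 and Control mouse 37. The Model mean was 2.67-fold below the Control mean (log2 difference -1.42 ± 0.30, adjusted P = 0.00695).

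Slc5a8 (ENSMUSG00000020062, chromosome 10, 88885992 to 88929515) encodes a sodium-coupled transporter that takes up short-chain fatty acids. It was at 63.2, 69.0, 102, 101 and 57.8 FPKM in Control mice and 68.7, 87.1, 87.5, 77.8 and 67.7 FPKM in PZH mice. The Model mice were at 25.8, 39.4, 37.7, 19.3 and 30.9 FPKM and the Model + PZH mice at 53.3, 66.7, 43.7, 19.3 and 76.2 FPKM. No Model mouse reached the lowest Control mouse. The Model mean was 2.57-fold below the Control mean (log2 difference -1.34 ± 0.23, adjusted P = 0.00205).

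ENaC is built from 3 subunits, and in the mouse colon the alpha subunit stood far above the others. Scnn1a (ENSMUSG00000030340, chromosome 6, 125320659 to 125344943), the alpha subunit, was at 66.1, 38.1, 51.5, 54.1 and 53.1 FPKM in Control mice and 50.7, 61.5, 47.8, 48.3 and 53.6 FPKM in PZH mice. It was at 24.6, 38.3, 31.4, 21 and 26.4 FPKM in Model mice and 40.7, 51.5, 32.1, 24.1 and 48.8 FPKM in Model + PZH mice. Of the 5 Model mice, 4 lay below the lowest Control mouse, and mouse 30 was just above it. The mean was 1.85-fold lower in the Model group (log2 difference -0.88 ± 0.18, adjusted P = 0.00555).

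Scnn1b (ENSMUSG00000030873, chromosome 7, 121865038 to 121918514) encodes the beta subunit and Scnn1g (ENSMUSG00000000216, chromosome 7, 121734479 to 121768475) the gamma subunit, and the genes are neighbours with 96562 bases between them. Scnn1b was at 2.18, 0.105, 1.14, 0.383 and 3.52 FPKM in Control mice and at 1.46, 2.37, 1.79, 1.96 and 1.37 FPKM in PZH mice. Model mice had 9.12, 4.47, 3.37, 6.84 and 1.87 FPKM of Scnn1b and Model + PZH mice 0.990, 1.63, 0.574, 2.72 and 1.96 FPKM. The highest 3 Model mice lay above every Control mouse, and the other 2 within the Control range. The Model mean of 5.13 ± 2.87 FPKM was 3.5-fold above the Control mean of 1.47 ± 1.40 FPKM (log2 difference 1.37 ± 0.43, adjusted P = 0.0422). The call was lost with a pseudocount of 0.1 (adjusted P = 0.0568), without the filter on low values (adjusted P = 0.0812) and with median-of-ratios scaling (adjusted P = 0.0561). Leaving out 1 mouse at a time gave adjusted P-values from 0.0203 to 0.0992, and the call was lost without Control mouse 37, 41 or 48 or without Model mouse 23, 30, 33 or 44.

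Scnn1g was at 2.27, 0.530, 0.903, 1.31 and 2.43 FPKM in Control mice and at 2.49, 0.360, 0.627, 0.451 and 0.409 FPKM in PZH mice. It was at 5.89, 2.75, 0.883, 3.87 and 1.41 FPKM in Model mice and at 0.604, 0.657, 0.346, 1.35 and 1.51 FPKM in Model + PZH mice. The groups overlapped, and the difference of 0.58 ± 0.36 between Model and Control mice was not significant (adjusted P = 0.278). Without Control mice 17 and 50 the difference was 1.91 for Scnn1b (adjusted P = 0.0144) and 0.92 for Scnn1g (adjusted P = 0.155). Mice 23 and 44, the highest Model mice for Scnn1b, were also the highest for Scnn1g, and Control mice 17 and 50, with the most squamous marker RNA, were the highest Control mice for both genes. These squamous markers moved with both subunits among the Control mice, and their part in the result was not tested.

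Slc9a3 (ENSMUSG00000036123, chromosome 13, 74121457 to 74169442) encodes NHE3, the apical sodium/proton exchanger that is coupled to Slc26a3 in sodium chloride uptake. It varied more within groups than any other well expressed member, with a coefficient of variation of 92.9% over the Control mice. Its level was 5.68, 20.4, 55.1, 57.8 and 3.27 FPKM in Control mice and 26.8, 67.2, 42.2, 71.2 and 101 FPKM in PZH mice. Model mice were at 25.4, 8.92, 58.2, 4.10 and 52.2 FPKM and Model + PZH mice at 64.7, 29.7, 96.2, 5.51 and 57.0 FPKM. The ranges of Control and Model mice were nearly the same, and the difference was 0.21 ± 0.90 with a 95% interval from -1.77 to 2.19 (adjusted P = 0.891), which is too wide to tell a fall like that of Slc26a2 from a rise. The 5 lowest mice for Slc9a3, which came from 3 groups (Control 50 and 17, Model 44 and 30, Model + PZH 35), were among the 6 mice with the highest squamous marker sums. Without Control mice 17 and 50 the difference turned to -0.97 and was again not significant (adjusted P = 0.462).

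Cftr (ENSMUSG00000041301, chromosome 6, 18170687 to 18322768), the apical chloride channel of secretion, was at 5.28, 18.2, 28.3, 30.7 and 12.4 FPKM in Control mice and 19.4, 27.6, 29.1, 34.1 and 26.8 FPKM in PZH mice. The level was 10.3, 7.93, 14.8, 6.45 and 10.1 FPKM in Model mice and 21.8, 17.8, 21.8, 7.90 and 22.3 FPKM in Model + PZH mice. All Model mice lay below all PZH mice but inside the Control range, which Control mice 17 and 50 widened at its low end. Between Model and Control mice Cftr differed by -0.70 ± 0.41 and was not called (adjusted P = 0.246). Leaving out Control mouse 17 gave -1.07 (adjusted P = 0.0281), and leaving out Control mice 17 and 50 gave -1.31 (adjusted P = 0.0113). For Cftr, the transcript Cftr-201 held only 52.2% of the sum, and Cftr-202, annotated as a target of nonsense-mediated decay, held 17.7% while listed at 0 in 13 mice. Taken alone, Cftr-201 gave a difference of 0.17 (adjusted P = 0.896).

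Slc12a2 (ENSMUSG00000024597, chromosome 18, 57878678 to 57946821) encodes NKCC1, the basolateral sodium, potassium and chloride cotransporter that supplies chloride for secretion. Its level was 36.4, 34.0, 55.8, 42.6 and 41.7 FPKM in Control mice and 54.3, 61.4, 52, 54.7 and 59.2 FPKM in PZH mice. Model mice had 96.8, 70.9, 76.2, 105 and 84.5 FPKM and Model + PZH mice 71.3, 44.9, 65.7, 90.5 and 69.9 FPKM. All Model mice lay above all Control and all PZH mice. The Model mean of 86.8 ± 14.3 FPKM was 2.06-fold above the Control mean of 42.1 ± 8.47 FPKM (log2 difference 1.03 ± 0.15, adjusted P = 0.000952). It was the only member to rise with no overlap between Model and Control mice, while Slc26a3, Aqp8 and Slc5a8 fell with no overlap, and of all genes tested 13% were higher and 5.43% lower with no overlap.

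**Figure D2:**
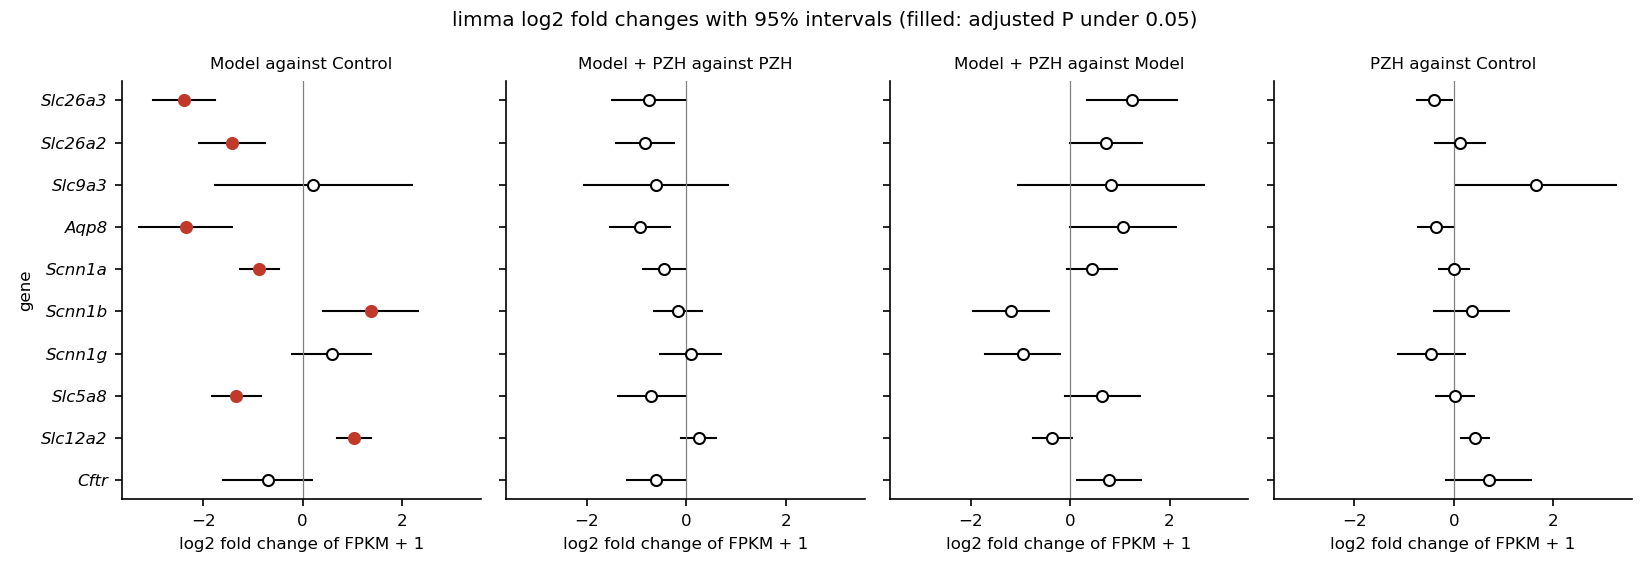
Log2 fold change of FPKM + 1 (horizontal axes) with its 95% interval from limma for each transporter gene in 4 comparisons, where filled points have an adjusted P under 0.05. Calls appear only in Model against Control, from -2.39 for Slc26a3 to 1.37 for Scnn1b, and the points of Model + PZH against PZH for Slc26a3, Slc26a2, Aqp8, Scnn1a, Slc5a8 and Cftr lie below 0 with intervals that do not reach it.

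Marker genes of several cell types also moved in Model against Control, where 16.4% of all genes tested were called higher and 7.23% lower. Of 8 differentiated colonocyte genes 5 fell, with summed levels of 900.2 to 1767 FPKM in Model mice against 2692 to 5058 FPKM in Control mice. Of 8 genes of the crypt base and of dividing cells 4 rose (196 to 291 against 106 to 179 FPKM), and so did 4 of 8 immune genes (391.7 to 881 against 172 to 380.1 FPKM). All 6 smooth muscle genes fell (996 to 1734 against 2244 to 5172 FPKM). Their sum was also low in PZH mice, which had no AOM/DSS (1039 to 2412 FPKM, median 1838 FPKM). Among other marker lists, 2 of 7 pan-epithelial genes tested fell, 2 fibroblast genes rose and 1 fell among 6, and 2 vessel wall genes rose and 1 fell among 5 tested, while none of 6 goblet cell genes and none of 4 squamous genes tested passed. The part of these shifts in the fall of the absorptive transporters was not tested. Centred on 6 epithelial genes (Cdh1, Krt18, Krt19, Vil1, Cldn7, Cldn3), a choice made after the values were seen, the 5 transporter genes were again called lower and the 2 higher. Centred on all 8 listed epithelial genes, Slc12a2 (0.27, adjusted P = 0.732) and Scnn1a (-1.64, adjusted P = 0.134) were no longer called, but Epcam and Krt8, the other 2 genes of that list, were under 1 FPKM in 13 and 8 of the 20 mice.

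Among mice given PZH, the AOM/DSS contrast was measured between Model + PZH and PZH, which share no mouse with Model and Control. There no transporter gene was called, where 2.42% of 15636 genes were. Before adjustment 6 transporter genes were lower at P under 0.05, where 7.89% of all genes were, namely Slc26a2, Aqp8, Scnn1a, Slc26a3, Slc5a8 and Cftr. Aqp8 was lower in 5 of 5 Model + PZH mice than in any PZH mouse, as were 2.37% of all genes, with a difference of -0.93 ± 0.27 (adjusted P = 0.0963). Slc26a3 differed by -0.75 ± 0.34 (adjusted P = 0.238) and Slc12a2 by 0.25 ± 0.16 (adjusted P = 0.401).

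Between Model + PZH and Model mice, which addresses whether PZH moved the transporters in the CAC model, no transporter gene was called. Only 1 of 15888 genes was, or 0.00629%. At an unadjusted P under 0.05, 3 transporter genes were higher with PZH and 2 lower, where 3.51% of all genes were higher and 8.21% lower. Slc26a3 was higher by 1.25 ± 0.41 (adjusted P = 0.356), Cftr by 0.79 ± 0.29 (adjusted P = 0.366; -0.11 and adjusted P = 0.947 with Cftr-201 alone) and Aqp8 by 1.07 ± 0.48 (adjusted P = 0.425), while Scnn1b was lower, with differences of -1.18 ± 0.35 (adjusted P = 0.356) and, for Scnn1g, -0.95 ± 0.34 (adjusted P = 0.362). The adjusted limma P-values of the 10 genes lay between 0.356 and 0.722. This comparison shares the Model mice with Model against Control, so that opposite signs in the 2 comparisons are no separate evidence.

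Mouse 35 stood apart from the rest of the Model + PZH group. For Slc26a3, Slc5a8 and Cftr the other 4 mice lay above the highest Model mouse, while mouse 35 lay within the Model range. For the 4 genes whose Model and Control ranges were apart (Slc26a3, Aqp8, Slc5a8, Slc12a2), mouse 35 was in the Model range in 4 of 4, mouse 13 was in the Control range in 3, mouse 36 in 2, and mice 2 and 15 were between the groups or in the Model range. Mouse 35 also had the lowest differentiated colonocyte sum of its group, 1166 FPKM against 1795 to 2433 FPKM, and the highest squamous sum. Without mouse 35, which was doubted after its values were seen, Slc26a3 was higher by 1.58 (adjusted P = 0.0289), Slc5a8 by 0.96 (adjusted P = 0.0451) and Cftr by 1.05 (adjusted P = 0.0207) in Model + PZH than in Model mice, where 0.761% of all genes were called higher and 4.41% lower. The labels give no reason to leave this mouse out.

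PZH alone moved no transporter gene past the adjusted test, where 0.00645% of 15506 genes (1 gene) were called. At an unadjusted P under 0.05, which 8.84% of genes had, Slc12a2 (0.43 ± 0.13, adjusted P = 0.469), Slc9a3 (1.65 ± 0.73, adjusted P = 0.555) and Slc26a3 (-0.39 ± 0.16, adjusted P = 0.545) differed between PZH and Control mice. Without Control mice 17 and 50 the Slc9a3 difference was 0.47 (adjusted P = 0.846). The groups overlapped for all 10 genes. Slc5a8, at 77.8 ± 9.54 FPKM in PZH and 78.6 ± 21.3 FPKM in Control mice, differed by 0.02 with a 95% interval from -0.36 to 0.40, and Scnn1a differed by 0.01 with an interval from -0.29 to 0.31. The coefficient of variation over mice was lower in the PZH than in the Control group for 9 of the 10 genes, with Scnn1g as the exception. This was not counted over all genes. Among other epithelial genes it was lower in PZH mice for some, such as Krt20 (6.44 against 28.4%), and higher for others, such as Krt18 (15.1 against 11.7%).

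Against Control mice, Model + PZH mice showed no called transporter gene, where 2.42% of 15616 genes were called. At an unadjusted P under 0.05, which 20.9% of all genes had, stood 3 of them, Aqp8, with a difference of -1.29 ± 0.30 (adjusted P = 0.0535), Slc12a2, with 0.67 ± 0.19 (adjusted P = 0.0826), and Slc26a3, with -1.14 ± 0.35 (adjusted P = 0.108). With all 20 mice in 1 model these 3 genes were called, with adjusted P-values of 0.0386, 0.0128 and 0.0356. In that setting 1503 of all 15616 genes tested were called, against 378 in the main test. The order of the mean Slc26a3 level was Control (400.1 FPKM), PZH (301), Model + PZH (199.6) and Model (79.6). In the main tests, each fitted to all mice of the groups compared, only Model and Control differed in Slc26a3 after adjustment. Under other settings Slc26a3 was also called between Model + PZH and Control (all 20 mice in 1 model) and between Model + PZH and Model (without mouse 35). Model and PZH mice were not tested against each other.

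Whether the PZH difference was not the same in mice with and without AOM/DSS was tested as an interaction over all 20 mice. No transporter gene was called, and 2 of 16936 genes were, or 0.0118%. Slc26a3 (1.64 ± 0.47), Slc12a2 (-0.79 ± 0.22), Scnn1b (-1.54 ± 0.51) and Aqp8 (1.43 ± 0.54) had an unadjusted P under 0.05, as had 10.3% of genes, and their adjusted limma P-values lay between 0.350 and 0.389. Without mouse 35, Slc26a3 (1.97, adjusted P = 0.00662) and Slc12a2 (-0.89, adjusted P = 0.0269) were called, where 2.83% of genes were.

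**Figure D3:**
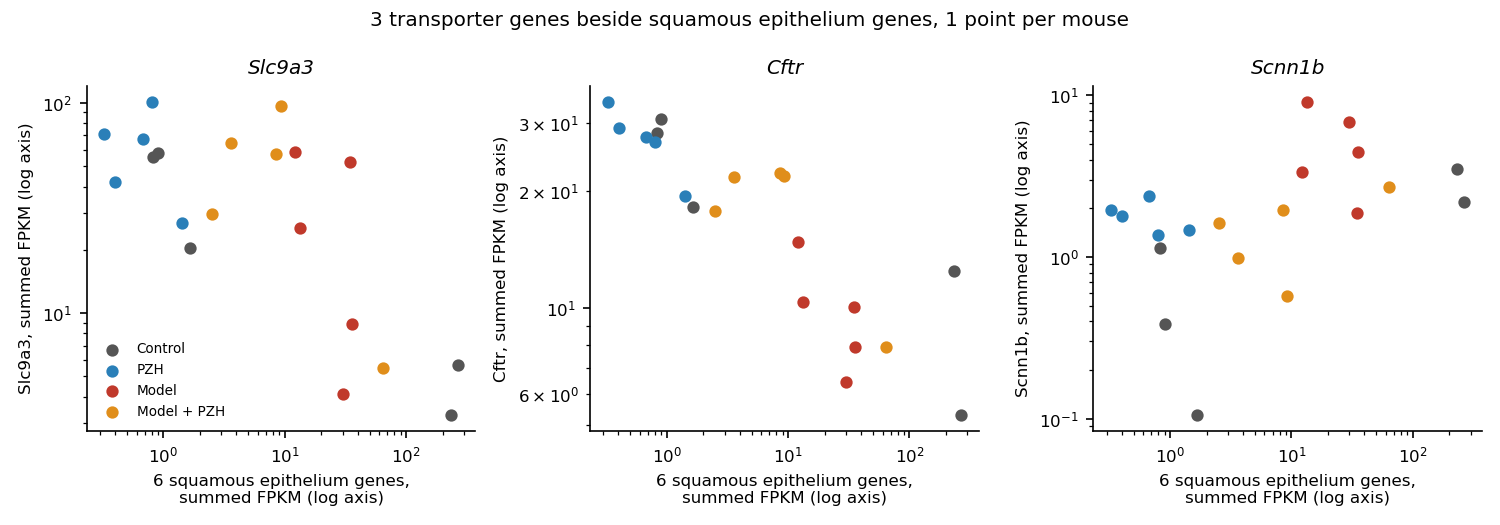
Summed FPKM of Slc9a3, Cftr and Scnn1b (vertical log axes) against the summed FPKM of 6 squamous epithelium genes (horizontal log axes), with 1 point per mouse coloured by group. Control mice 17 and 50, at 266 and 232 FPKM of squamous genes, lie at the low end for Slc9a3 (5.68 and 3.27 FPKM), apart from the other 3 Control mice.

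The 2 Control mice with the most squamous marker RNA were low for Slc9a3 and also for Cdx2, the homeobox factor of the intestinal lining. Cdx2 was at 7.35 and 7.23 FPKM in these mice and at 25.9 to 69.7 FPKM in the other 3. Slc26a3, by contrast, was at 536 and 384 FPKM in the same 2 mice and at 299 to 446 FPKM in the others, and the fall of Slc26a3 in Model mice was called with and without them.

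Among 66 other genes of ion and water transport in 10 lists, 58 could be tested between Model and Control mice. Of these, 11 rose and 9 fell, where 16.4% and 7.23% of all genes did, and leaving out 1 mouse at a time gave 6 to 12 higher (6 without Model mouse 44) and 8 to 10 lower. For 3 of the 11, Slc9a4, Slc26a9 and Prkg2, no Control mouse reached 0.5 FPKM, so that they passed the filter on low values through the Model mice alone and had to differ. The median difference of the 10 transporter genes was -0.79, against 0.09 for all genes.

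**Figure D4:**
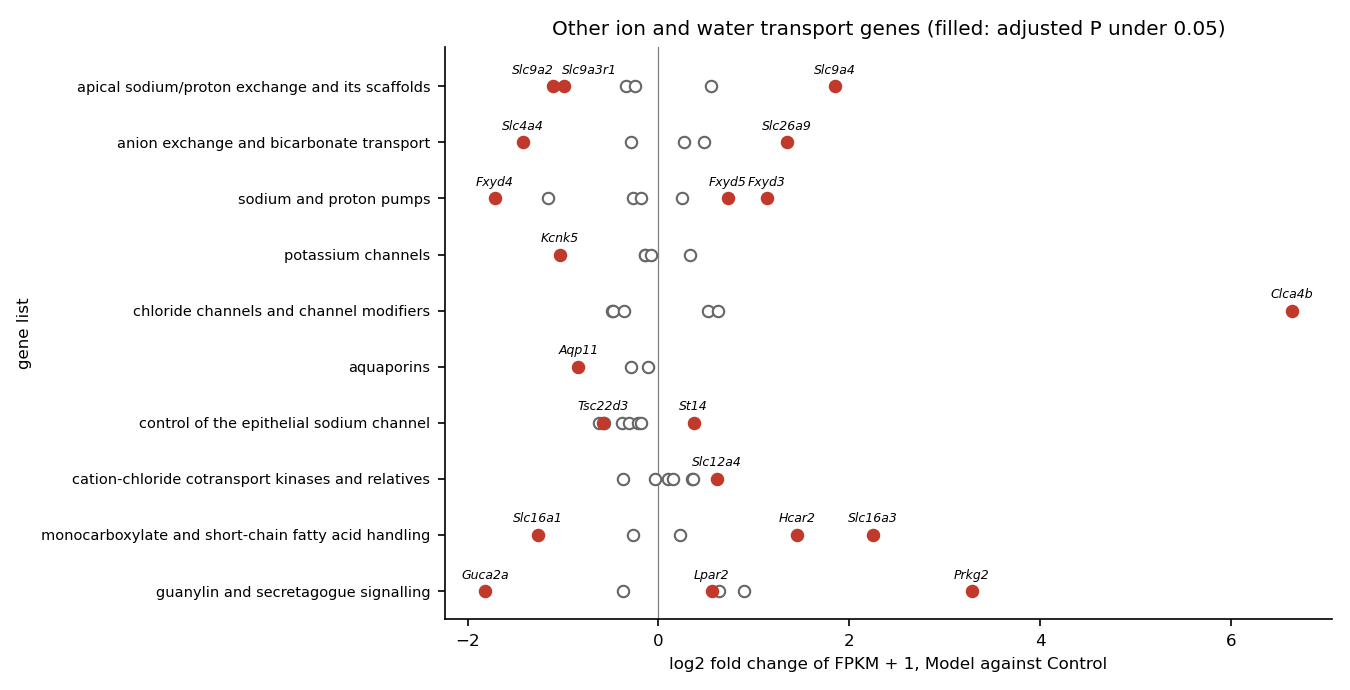
Log2 fold change of FPKM + 1 in Model against Control mice (horizontal axis) for the 58 tested genes of 10 transport lists (vertical axis), where filled and named points have an adjusted P under 0.05. Guca2a at -1.82 and Fxyd4 at -1.72 are farthest to the left and Clca4b at 6.64 and Prkg2 at 3.28 farthest to the right, the latter a gene that passed the filter on low values through the Model mice alone, as did Slc9a4 and Slc26a9.

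Among sodium/proton exchangers and their scaffolds, 1 of 6 genes tested rose and 2 fell. Slc9a2 (NHE2), the apical exchanger beside Slc9a3, fell from 40.6 ± 6.13 to 19.7 ± 8.59 FPKM (-1.10, adjusted P = 0.0133), and Slc9a3r1 (NHERF1), which tethers Slc9a3 and Cftr, fell from 168 ± 18.0 to 85.8 ± 19.0 FPKM (-0.99, adjusted P = 0.00124). Slc9a4 (NHE4), known from the stomach, was listed at 0 in 3 Control mice and at 1.56 to 5.61 FPKM in Model mice. Of 5 anion exchange genes tested, the basolateral bicarbonate importer Slc4a4 fell from 23.2 ± 14.5 to 6.99 ± 1.68 FPKM (-1.42, adjusted P = 0.0149). Slc26a9, a chloride transporter of stomach and airway, was listed at 0 in 3 Control mice and at 1.09 to 2.19 FPKM in every Model mouse.

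Of 3 aquaporins tested, Aqp11 fell from 5.43 ± 0.60 to 2.59 ± 0.288 FPKM (-0.84, adjusted P = 0.000654). Among 8 genes that control ENaC, Tsc22d3 (GILZ), a glucocorticoid and mineralocorticoid target, fell by 0.58 on the log2 scale (adjusted P = 0.0177), and St14 (matriptase), a protease that activates the channel, rose by 0.37 (adjusted P = 0.0305). Of 7 kinases and relatives of the cation-chloride cotransporters, only Slc12a4 (KCC1) passed, with a rise of 0.61 (adjusted P = 0.0204). The potassium channel Kcnk5, which keeps the basolateral membrane polarised, fell from 26.8 ± 2.50 to 12.9 ± 3.44 FPKM (-1.03, adjusted P = 0.00165), as the single call among 5 tested. Of 7 genes of sodium and proton pumps, the pump regulators Fxyd3 and Fxyd5 rose by 1.13 and 0.73 (adjusted P = 0.000571 and 0.0117), and Fxyd4 fell by 1.72 (adjusted P = 0.0397). Fxyd4 was at 64.6 ± 48.7 FPKM in Control and 18.1 ± 11.9 FPKM in Model mice, with ranges that overlapped. It was also low in PZH mice, which had no AOM/DSS (18.0 ± 12.9 FPKM).

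Clca4b, of a family that modifies calcium-activated chloride currents, rose from 3.60 ± 3.11 to 383 ± 92.7 FPKM (6.64, adjusted P = 4.26e-06), the single call among 6 chloride channel genes. Fragments could be split between Clca4b and its near copy Clca4a, which was at 102 ± 49.6 FPKM in Control and 72.0 ± 25.2 FPKM in Model mice and was not called (adjusted P = 0.356). In Model + PZH mice Clca4b ranged from 0.708 to 489 FPKM. Of 6 genes of guanylin signalling, by which the gut lining sets its chloride secretion, Guca2a (guanylin) fell from 986 ± 349.8 to 277 ± 93.0 FPKM (-1.82, adjusted P = 0.00192). Prkg2, the kinase downstream of guanylin that opens CFTR and inhibits NHE3, was at 0.178 ± 0.115 FPKM in Control and 11 ± 4.13 FPKM in Model mice, and Lpar2, a lysophosphatidic acid receptor, rose by 0.56 (adjusted P = 0.00517).

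In the handling of monocarboxylates, 2 of 5 genes tested rose and 1 fell. Slc16a1 (MCT1), which carries butyrate and lactate, fell from 100.4 ± 10.2 to 41.9 ± 9.34 FPKM (-1.27, adjusted P = 0.000341), alongside Slc5a8. Slc16a3 (MCT4), a lactate exporter, rose from 7.12 ± 4.53 to 35 ± 13.5 FPKM (2.25, adjusted P = 0.00254), and Hcar2, the niacin and butyrate receptor, from 0.716 ± 0.478 to 3.8 ± 1.61 FPKM (1.46, adjusted P = 0.00245). Against Control mice, Model + PZH mice had 3 of 56 such genes called, all lower, where 2.42% of all genes were called, and leaving out 1 mouse at a time gave 0 to 3. They are named here after their values were seen. These were Slc16a1 (-0.82, adjusted P = 0.0445), Kcnk5 (-0.81, adjusted P = 0.0496) and Fxyd4 (-3.03, adjusted P = 0.0263). No gene of the 10 lists was called in the other 3 pairwise comparisons. Without Model + PZH mouse 35, 6 genes of these lists were called lower in Model + PZH than in Model mice, where 4.41% of all 15639 genes tested were. At an unadjusted P under 0.05 stood 14 genes in Model + PZH against Model, where 11.7% of all genes did, 8 in PZH against Control (8.84%) and 18 in Model + PZH against PZH (20.9%).

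The likeness of patterns was measured as the mean absolute difference of standardised log2(FPKM + 1) over the 20 mice, for 8936 genes with a mean of at least 5 FPKM, and the nearest gene was sought outside the 10 members. It is a description of these mice, which share groups and tissue makeup. Agpat4, an acyltransferase, was nearest to Slc26a3 at 0.18 (median over all genes 1.21), Car2 (carbonic anhydrase 2) to Aqp8 at 0.225, Vdr (the vitamin D receptor) to Slc26a2 at 0.223, Plcd1 to Scnn1a at 0.219, Slc6a14 (an amino acid transporter) to Slc5a8 at 0.202 and Man2a1 to Slc12a2 at 0.254. The remaining members had more distant neighbours, with Dpep1 at 0.303 from Cftr, Cgref1 at 0.339 from Slc9a3, Mettl7a3 at 0.444 from Scnn1g and Kif3b at 0.474 from Scnn1b. Within the set, Slc26a2 and Scnn1a were nearest to each other (0.215), Slc26a3 and Slc5a8 followed (0.281), and Scnn1b and Scnn1g lay nearest to each other at 0.547.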

How the data were processed

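Libraries from 20 mice were prepared with a NEBNext Ultra kit from total RNA depleted of ribosomal RNA. Between these steps the paper also names a kit that isolates poly(A) mRNA. The authors checked reads with FastQC v0.11.5, filtered them with NGSQC v2.3.3, aligned them to mm10 with HISAT2 v2.1.0 and deposited FPKM per transcript from StringTie v1.3.3b, without counts. Of 118434 transcripts, 22252 were assembled from the reads, carried no gene name and held 12.1 to 14.8% of the summed FPKM per mouse, so fragments assigned to them are missing from the genes. Here, FPKM of 96032 transcripts found in GENCODE M21 were summed per gene (150 Ensembl transcripts were not found). Genes that reached 0.5 FPKM in 5 or more mice of a comparison (10 mice, or 20 for the interaction) were compared as log2(FPKM + 1) with limma 3.58.1 in R 4.3.3 with an intensity trend and no covariates. A pseudocount of 1 understates changes of low genes. For the depth, 97.9 to 98.4% of low values lay within 0.02 of a whole step. Each mouse is 1 replicate, and batches are not given in the sources used here. The transporter genes, lists and tests were chosen with earlier results of these data known. The result of 1 marker list is not reported here. From each list, up to 3 called genes with the lowest adjusted P are named. Scripts were tested on simulated data. Alternatives were another pseudocount, filter, scaling and centring, all 20 mice in 1 model, the main transcript of each gene, and leaving out mice.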

Additional observations from a re-analysis of the deposited data

Results flagged for a closer look

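Of 40 group values (10 transporter genes in 4 groups of 5 mice), 1 held a mouse far from the others, where about 2 would be found by chance at 1 in 20. In the PZH group, Scnn1g of mouse 8 was at 2.49 FPKM against 0.627 FPKM in the next highest mouse, a gap of 0.875 of the range of the group. The part of any technical difference in this value was not tested.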

How the results depend on the processing

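Between Model and Control mice, Slc26a3, Slc26a2, Aqp8 and Slc5a8 stayed lower and significant under every alternative run. Scnn1a stayed lower and Slc12a2 higher, both significant, under all but the centring on 8 epithelial genes. The number of transporter genes called higher was 1 with a pseudocount of 0.1, no filter, a strict filter (Scnn1b was then not tested), median-of-ratios scaling or the main transcript alone, and 0 when centred on 8 epithelial genes. Leaving out 1 mouse at a time gave 1 to 2 called higher. For Model + PZH against Model it gave 0 to 3 higher, with 3 without mouse 35. Against PZH it gave 0 to 1 lower (Aqp8 without mouse 13, adjusted P = 0.0492), and against Control 0 to 1 higher and 0 to 1 lower (called without mouse 13 or 36). For the interaction it gave 0 to 1 in each direction, with 1 and 1 without mouse 35. With the 3 mice richest in squamous marker RNA left out, a choice made after seeing the data, 3 transporter genes were higher in Model + PZH than in Model mice, and the interaction gave 1 higher and 1 lower. For Model + PZH against Model and against PZH this removed mouse 35 alone, so these fits are the same as those without mouse 35. Model + PZH against Control gave 4 lower when centred on 8 epithelial genes, and 1 higher and 2 lower with all 20 mice in 1 model.

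Directions that turned belonged to differences that were not significant. Centred on 8 epithelial genes, Model against Control gave -0.54 for Slc9a3 and -0.17 for Scnn1g; PZH against Control -0.026 for Slc26a2, -0.15 for Scnn1a and -0.14 for Slc5a8; Model + PZH against PZH -0.57 for Scnn1g and -0.41 for Slc12a2; and Model + PZH against Control -0.63 for Scnn1b, -0.14 for Slc12a2 and -0.73 for Cftr. With the main transcript alone, Cftr was at 0.17 in Model against Control, -0.11 in Model + PZH against Model, -0.49 in PZH against Control and 0.55 in Model + PZH against PZH, and Scnn1b at -0.10 in Model + PZH against Control. Median-of-ratios scaling gave -0.0070 for Scnn1a and -0.000198 for Slc5a8 in PZH against Control. Without the 3 squamous-rich mice, Slc9a3 was at -0.97 in Model against Control, 0.025 in Model + PZH against PZH and 0.99 in the interaction, Slc5a8 at -0.20 in PZH against Control, Scnn1g at -0.00425 in Model + PZH against PZH and Cftr at -0.26 in Model + PZH against Control. Leaving out 1 mouse at a time, the ranges that crossed 0 were -0.31 to 0.73 for Slc9a3 in Model against Control; -0.065 to 0.28 for Slc26a2, -0.10 to 0.10 for Scnn1a and -0.082 to 0.12 for Slc5a8 in PZH against Control; -0.95 to 0.025 for Slc9a3 and -0.028 to 0.34 for Scnn1g in Model + PZH against PZH; -0.052 to 0.46 for Scnn1b and -0.28 to 0.35 for Cftr in Model + PZH against Control; and -0.13 to 0.45 for Cftr in the interaction. The cause was not tested.

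Over all genes, 69.4% of the calls between Model and Control mice were higher, against 55% with median-of-ratios scaling, 39.7% when centred on 8 and 83.6% on 6 epithelial genes. For Model + PZH against Control these shares were 64, 50.1, 8.62 and 85.5%, and for Model + PZH against PZH 72% against 27.6 and 89.8% under the centrings. Centring on 8 genes moved the median of all genes by -0.76, -0.82, -0.66 and -0.16 (Model against Control, Model + PZH against Control, Model + PZH against PZH, PZH against Control) and by 0.10 in the interaction, and centring on 6 genes by 0.13, 0.16 and 0.14 in the first 3. Called genes numbered 307 when centred on 8 genes and 2456 with single transcripts, against 3739, for Model against Control. All 20 mice in 1 model gave 89 genes against 1 for Model + PZH against Model, 1002 against 378 for Model + PZH against PZH and 1503 against 378 for Model + PZH against Control. These 378 calls fell to 90 and 98 with no filter and to 70 and 129 with single transcripts. Leaving out 1 mouse gave 54 to 423 against PZH, with 54 to 229 when it was a PZH mouse or Model + PZH mouse 2 or 15. Against Control it gave 78 to 495, with 78 to 166 when it was Control mouse 17, 41, 48 or 50 or Model + PZH mouse 2, 15 or 35, and 19 without the 3 squamous-rich mice. Without mouse 35, 808 genes were called for Model + PZH against Model and 476 against 2 for the interaction.

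No paired analysis was possible because the mouse numbers in the labels do not repeat between groups. Scnn1b and Scnn1g are limited by depth, with as few as 19 and 68 steps of the value scale in a mouse, and how many steps make 1 fragment is uncertain.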
